A study of Mus musculus with 6 samples.

Results

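Semaphorins, plexins and neuropilins, a ligand and receptor family of axon guidance, were examined in RNA from the sciatic nerves of Dok6 mutant and control mice at postnatal day 3 (P3). Members were defined by gene symbol, and the family was chosen with earlier results of these data known. They are the semaphorins of classes 3 to 7, the plexins of families A to D and Nrp1 and Nrp2, which are 31 of the 54532 genes in the table. Of these, 20 are ligands and 11 are receptors, the latter being 9 plexins and 2 neuropilins. All 31 passed the filter on low counts, and the lowest count of any member in any library was 67 reads, for Sema3b in control mouse 2.

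Semaphorins are secreted or membrane-bound proteins that turn growing axons away or draw them on, and plexins are the transmembrane receptors that carry their signal to the cytoskeleton through small GTPases. Most secreted class 3 semaphorins do not bind plexins by themselves and need a neuropilin as the ligand-binding partner, whereas the membrane-bound classes bind plexins directly. In peripheral nerves the family is known for guiding sensory and motor axons, and in vessels Plxnd1 and the neuropilins serve endothelial cells, the neuropilins also as partners of VEGF receptors.

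RNA was sequenced from 3 control (WT) mice and 3 Dok6 mutant mice (genotype Dok6 KO), with a single library for each mouse and no treatment. The mutants are a conventional knockout on a C57BL/6 background, made by crossing mice with a floxed exon 3 of Dok6 to EIIA-cre mice, whose Cre is active from the early embryo, so the deletion is not confined to a single cell type. Dok6 encodes an adaptor protein of neurotrophin receptor signaling. The comparison asks which members of the family differ in RNA level between the genotypes, and whether ligands and receptors differ in the same way.

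The libraries held between 17699904 and 18678170 counts, and 3 counts, taken as the smallest detectable level, corresponded to between 0.156 and 0.172 counts per M counts (CPM), a floor for counting error only. Dok6 stood at 17.8, 11.9 and 17.5 CPM in controls and at 7.26, 5.78 and 7.15 CPM in mutants. Each mutant mouse was lower than each control mouse (log2 fold change -1.23, SE 0.20, adjusted p = 0.0118 by edgeR's quasi-likelihood test). The counts are per gene and do not resolve the deleted exon. The tissue label was compared with markers. Pmp22, a peripheral myelin gene, was at 24.7, 17.5 and 14.6 CPM in controls and at 89.3, 783 and 76.2 CPM in mutants. Sox10, a transcription factor of Schwann cells that oligodendrocytes also express, was at 42.2 to 108 CPM in control and at 49.4 to 144 CPM in mutant mice. Gfap, an astrocyte marker that some Schwann cells also express, was at 284, 227 and 489 CPM in controls and at 538, 555 and 189 CPM in mutants, and Slc17a6, a glutamate transporter of central and sensory neurons, was at 242 to 321 CPM in control and at 246 to 273 CPM in mutant mice. Markers of central inhibitory neurons were present in every library, with Slc32a1, the GABA and glycine vesicle transporter, at 125 to 181 CPM, Gad1, a GABA-synthesizing enzyme, at 167 to 232 CPM and Slc6a5, the neuronal glycine transporter, at 177 to 264 CPM over the 6 mice. Neurons of this kind have their cell bodies in the central nervous system, so the libraries do not show the makeup of sciatic nerve alone. They are called sciatic nerve by their label, and what other tissue they hold was not tested. In whole tissue, fewer cells of a type and less RNA per cell cannot be told apart.

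Of the receptors 5 of 11 rose and of the ligands 2 of 20, that is 45.5% and 10%, although no test compared the roles. Of the 31 members, 7 rose and 1 fell at an adjusted p under 0.05, that is 22.6% and 3.23%. Over all 17099 genes tested, 8.62% rose and 6.01% fell. Of the 11 receptors, Nrp1, Plxna2, Plxnb2, Plxnc1 and Plxnd1 rose and 0 fell (0 also at an unadjusted p under 0.05 by edgeR and by DESeq2 and limma voom), and the median log2 fold change of the receptors was 0.39 (range -0.25 to 1.65). Of the 20 ligands, Sema3b and Sema3g rose, Sema3a fell, and the median was 0.07 (range -0.48 to 2.61). The median of all genes tested was 0.01, and 51.4% of them had a positive log2 fold change. At an absolute log2 fold change above 1, the calls were Sema3b, Sema3g and Plxnd1, which are 3 members beside 4.01% of all genes, and above 2 the call was Sema3b alone, beside 1.19% of all genes. All mutant mice were above all control mice for 10 members, beside 19.6% of all genes, and below them for 3 members, beside 18.7% of all genes. Of the 11 receptors, 6 had no overlap upward and 0 downward, and of the 20 ligands 4 had no overlap upward and 3 downward (Sema3a, Sema3c and Sema6b).

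The counts of calls rested on single mice. With control mouse 2 left out, 0 of the 31 members passed the threshold in the edgeR fit. At an unadjusted p under 0.05, 10 members were higher and 3 lower in that fit, and the count over all genes is not given here. In the edgeR fit on all 6 mice, 5737 of 17099 genes and 15 of the 31 members were under that unadjusted level. Such p-values were thus common among all genes. At the adjusted threshold, 56 of the 17585 genes tested without control mouse 2 rose and 12 fell (0.318% and 0.0682%). With control mouse 3 or mutant mouse 2 left out, 3 members rose and 0 fell in each fit. The calls over all genes moved in these fits too. The share of all genes that rose was 5.72% without control mouse 3, 5.56% without control mouse 1, 3.99% without mutant mouse 1, 3.16% without mutant mouse 2 and 9.59% without mutant mouse 3. The share that fell was 3.53% without control mouse 3 and 1% without mutant mouse 2. The shares of the roles moved closer in some of these fits. Without mutant mouse 1, 2 of 11 receptors (18.2%) and 3 of 20 ligands (15%) rose, and without mutant mouse 3, 4 of each did (36.4% and 20%). The receptor share was the lower of the pair in the fit without mutant mouse 2 (1 receptor, 9.09%, and 2 ligands, 10%), and both were 0 without control mouse 2. The receptor median was between 0.27 and 0.44 over the 6 fits that leave out a mouse, lowest without mutant mouse 3, and the ligand median was between 0.05 and 0.12.

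**Figure D1:**
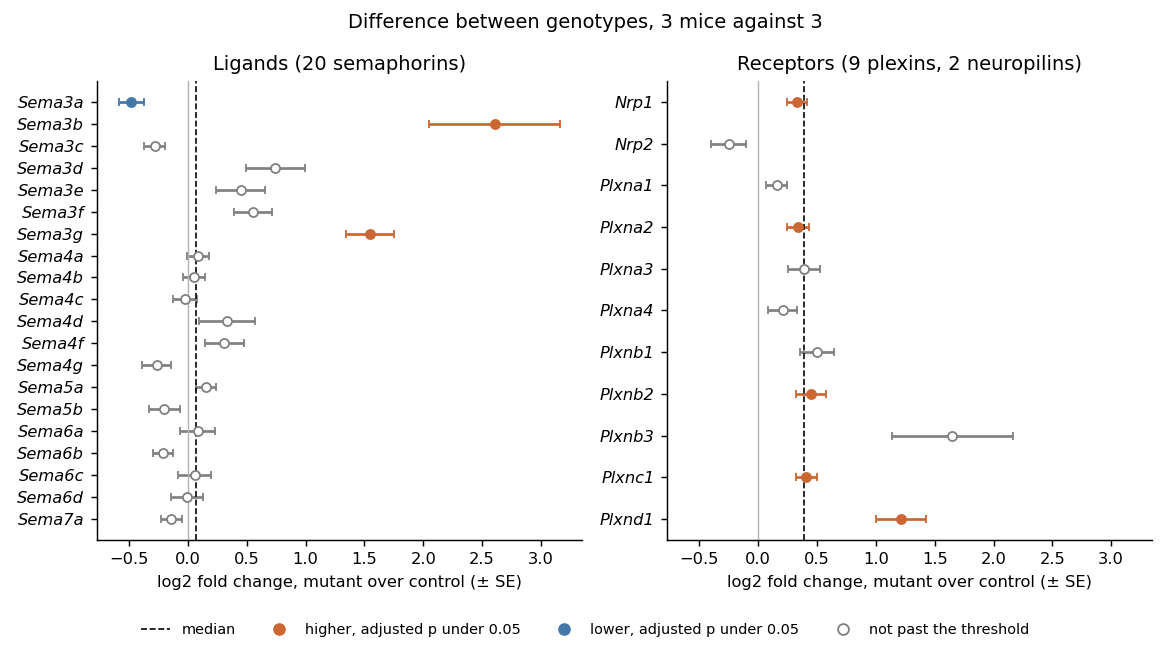
Log2 fold change of each member, Dok6 mutant over control, with its standard error from the edgeR fit on 3 mice a group; ligands are on the left and receptors on the right, filled points passed an adjusted p of 0.05, and the dashed line is the median of each panel. The receptor median stands at 0.39 and the ligand median at 0.07, and 10 of the 11 receptors lie above 0.

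Levels between genes were compared as CPM per kb of the gene length given in the table. Over all 6 mice the most abundant ligands were Sema4g (35.4 CPM per kb), Sema7a (31.2) and Sema6b (27.7), and the most abundant receptors were Plxna1 (27.7), Plxnb2 (22.5) and Nrp2 (16.0). The first place of Sema4g rests on its deposited length of 4872 bases, whereas its GENCODE M21 exons cover 8661 bases. With that length it stood at 19.9 CPM per kb, at rank 4 among ligands after Sema7a, Sema6b and Sema6d (23.8). The lengths of the other 30 members were the same in both. The lowest ligands were all of class 3: Sema3d (1.19), Sema3e (1.26), Sema3g (1.85) and Sema3b (3.90), and the lowest receptor was Plxnb3 (3.36). On this scale the 20 ligands summed to 237 to 249 CPM per kb in controls and to 231 to 252 in mutants, which overlap. The 11 receptors summed to 146, 121 and 123 CPM per kb in controls and to 162, 160.5 and 177 in mutants, with no overlap. The ratio of the ligand sum to the receptor sum was 1.70, 1.95 and 1.96 in controls and 1.42, 1.57 and 1.40 in mutants. Every mutant mouse thus had a lower ratio than every control mouse, with a larger receptor sum. Such separation is common in these data, since single genes were fully higher in mutants for 19.6% of all genes and fully lower for 18.7%. With the GENCODE length of Sema4g the ratio was 1.58 to 1.84 in controls and 1.31 to 1.49 in mutants, also with no overlap. These sums and ratios are a description, given without a test.

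**Figure D2:**
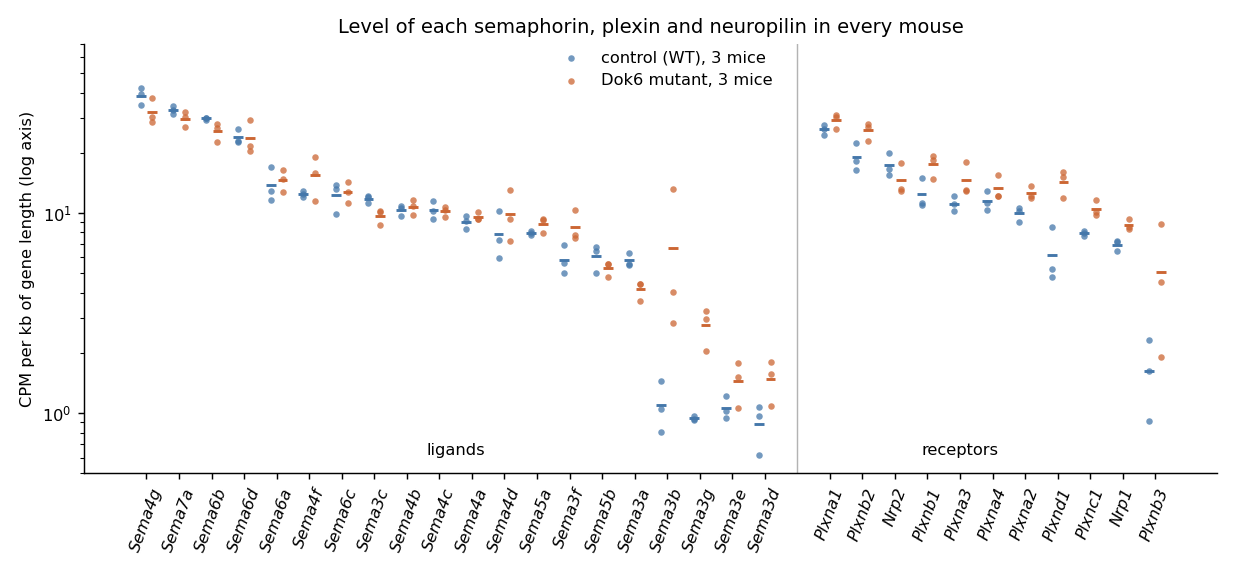
Level of each member in every mouse as CPM per kb of gene length, on a log axis, with ligands left and receptors right, each ordered by their mean; points are mice and short bars are the mean of 3 mice. Sema4g, by its deposited length, and Plxna1 head their groups at 35.4 and 27.7 CPM per kb, and Sema3b and Plxnb3 have the widest spread among mutant mice.

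For the 2 members that rose most firmly across the alternatives, Sema3g and Plxnd1, and for the member that fell, Sema3a, the 250 bases before the RefSeq start are shown to set the stretch ahead of a rising and a falling gene side by side (RefSeq, GRCm38.p6, the strand of the gene, 5′ to 3′). The Sema3g window is chr14:31217623-31217872 on the plus strand, and its last 13 bases are exonic in GENCODE M21. The Plxnd1 window is chr6:115995006-115995255 on the minus strand, directly ahead of the annotated gene. The Sema3a window is chr5:13396534-13396783 on the plus strand and lies within an intron of longer GENCODE transcripts of the gene. Capitals mark the letters searched on both strands: the GC box GGGCGG, the ETS core CCGGAA, the SOX core ACAAAG and the TATA box TATAAA.
Sema3g: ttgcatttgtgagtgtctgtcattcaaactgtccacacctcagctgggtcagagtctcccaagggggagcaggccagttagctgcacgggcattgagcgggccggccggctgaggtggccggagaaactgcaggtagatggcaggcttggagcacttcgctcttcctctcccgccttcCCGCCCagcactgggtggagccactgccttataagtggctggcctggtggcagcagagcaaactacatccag
Plxnd1: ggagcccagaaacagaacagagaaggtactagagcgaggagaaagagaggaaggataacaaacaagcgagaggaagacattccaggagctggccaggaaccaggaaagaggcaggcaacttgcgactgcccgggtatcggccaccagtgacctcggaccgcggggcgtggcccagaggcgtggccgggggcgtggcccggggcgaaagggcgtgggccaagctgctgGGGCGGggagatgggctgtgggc
Sema3a: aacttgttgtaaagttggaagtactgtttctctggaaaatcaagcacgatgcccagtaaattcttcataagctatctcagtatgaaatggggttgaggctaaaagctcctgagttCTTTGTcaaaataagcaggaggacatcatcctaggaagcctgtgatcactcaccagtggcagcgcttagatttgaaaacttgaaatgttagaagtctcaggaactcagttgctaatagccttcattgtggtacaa
The Sema3g and Plxnd1 windows each hold a GC box, and the Sema3a window holds a SOX core in its reverse form and no GC box. G and C make up 60.4% and 64.8% of the bases of the first pair and 40.8% in Sema3a, with 8, 16 and 2 CG dinucleotides. RefSeq promoter entries matched 26 of the 31 members, with 37 windows, and Plxna1, Plxna4, Sema3b, Sema3f and Sema6a were not matched. A GC box was in 27 of the 37 member windows (73.0%), beside 32.7% of all 32851 windows of this length in the table and 55.0% of the 15529 windows of those tested genes that matched by symbol. The ETS core was in 10.8% of member windows and 12.0% of all windows, the SOX core in 13.5% and 16.5%, and the TATA box in 0 of 37 and 12.4%. Among the windows of the matched tested genes these shares were 19.1%, 12.4% and 6.87%. For the SOX core the member share is 5 of 37 windows and lies between the other shares. Of the 8 windows of called members, 7 held a GC box, Sema3a being the exception, and so did 20 of the 29 windows of members that were not called. A match is a description of letters and not a binding site.

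Among the class 3 semaphorins, the secreted ligands, Sema3b and Sema3g rose and Sema3a fell, and the other 4 did not pass the threshold. The median log2 fold change of the 7 was 0.55. Sema3g, which binds Nrp2 and is known from endothelial cells, stood at 4.25, 4.41 and 4.17 CPM in controls and at 13.5, 14.7 and 9.33 CPM in mutants. The control mice lay close together and every mutant mouse was above all of them, so that the mean rose from 4.28 ± 0.12 to 12.5 ± 2.83 CPM (SD, n = 3). The log2 fold change was 1.55 (SE 0.20, adjusted p = 0.00717), and without control mouse 2 it was 1.57 with an adjusted p of 0.0519. Sema3g (ENSMUSG00000021904) lies at chr14:31217860-31230352 on GRCm38.

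Sema3b, a ligand of both neuropilins, was at 6.89, 3.84 and 5.03 CPM in controls and at 13.5, 63.3 and 19.3 CPM in mutants. The groups did not overlap, but mutant mouse 2 stood at over 3 times the level of either other mutant mouse. The log2 fold change was 2.61 (SE 0.56, adjusted p = 0.0227). Without mutant mouse 2 it was 1.64 with an adjusted p of 0.0272, and the call was lost with any control mouse left out (adjusted p between 0.0517 and 0.107) and by limma voom over all 6 mice (0.0622). Mutant mouse 2 was also the highest of all mice for the summed Schwann cell list, at 4641 CPM beside 605 and 1464 CPM in the other mutant mice and 309 to 1878 CPM in controls. Of the 13 genes of that list edgeR called 6 higher and limma voom 1, and 0 of them were at 0 in all control mice, and its part in the Sema3b result was not tested. Sema3b (ENSMUSG00000057969) lies at chr9:107597674-107609229.

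Sema3a, the prototype repellent of sensory axons that acts through Nrp1 and A plexins, was the single member that fell. It was at 77.6, 76.5 and 87.5 CPM in controls and at 61.0, 50.3 and 61.6 CPM in mutants. All mutant mice were below all control mice, and the log2 fold change was -0.48 (SE 0.11, adjusted p = 0.0241). The call was lost without control mouse 2 (adjusted p = 0.0879), control mouse 3 (0.0585), mutant mouse 1 (0.0546) or mutant mouse 2 (0.0658), with log2 fold changes of -0.39 to -0.52. Sema3a (ENSMUSG00000028883, chr5:13125414-13602565) shares a stretch of at least 95% identity with a transcript of Gm43431, so reads from that stretch could be split between them. Motor neurons express Sema3a, and the 6 motor neuron markers went both ways. Slc18a3, the vesicular acetylcholine transporter, fell (log2 fold change -0.47, adjusted p = 0.0358), a call that was lost with any mouse left out (0.0639 to 0.0891). Isl1, a transcription factor of motor and sensory neurons, had a log2 fold change of 1.09 (unadjusted p = 0.0132, adjusted p = 0.0680) and passed upward by DESeq2 (0.00636) and without mutant mouse 1 (0.0223). The summed list was at 109 to 142 CPM in control and 107 to 130.4 CPM in mutant mice, and its part was not tested.

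The other class 3 ligands went both ways without passing the threshold. Sema3c, an attractant that signals through both neuropilins and Plxnd1, was at 80.1 to 87.3 CPM in controls and at 62.3 to 73.2 CPM in mutants, with no overlap (log2 fold change -0.28, adjusted p = 0.0679). Sema3f, the main ligand of Nrp2, was at 26.0 to 35.8 and at 39.0 to 54.1 CPM, also with no overlap (0.55, adjusted p = 0.0530), and Sema3d was at 5.33 to 9.24 and at 9.38 to 15.4 CPM (0.74, adjusted p = 0.0778). Sema3e, which binds Plxnd1 without a neuropilin, overlapped between the groups (0.45, adjusted p = 0.167). DESeq2 called Sema3c, Sema3d and Sema3f as well, with adjusted p-values of 0.0496, 0.0294 and 0.0148. Without mutant mouse 3, Sema3d (0.92, adjusted p = 0.0371) and Sema3e (0.63, 0.0431) passed in the edgeR fit.

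Outside class 3, edgeR's quasi-likelihood test called 0 of 13 ligands, and 1 of the 13 (Sema6b) had an unadjusted p under 0.05. DESeq2 and limma voom called 0 of them too, whereas leaving out a mouse called Sema4g lower without mutant mouse 3 (-0.40, adjusted p = 0.0348) and Sema4f higher without mutant mouse 1 (0.49, 0.0470). Their log2 fold changes were between -0.27 and 0.33, with standard errors of 0.08 to 0.24, and their median was 0.05. Sema4g, a class 4 ligand and the most abundant per kb of its deposited length, was at 192, 205 and 168 CPM in controls and at 139, 147 and 184 CPM in mutants. Mutant mouse 3 fell within the control range while the other mutant mice lay below it (log2 fold change -0.27, adjusted p = 0.162). Sema7a, the membrane-anchored ligand of Plxnc1 that also binds integrins, was at 113, 103 and 108 CPM in controls and at 99.8, 88.4 and 105 CPM in mutants, and the groups overlapped. Sema6b, a transmembrane ligand of Plxna4, was at 118, 116 and 119 CPM in controls and at 105, 89.8 and 110.1 CPM in mutants. Every mutant mouse was lower, by a log2 fold change of -0.21 (unadjusted p = 0.0422, adjusted p = 0.134).

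The remaining ligands of classes 4, 5 and 6 overlapped between the genotypes. Sema4d, the ligand of Plxnb1 found on oligodendrocytes and immune cells, varied widely, at 45.8 to 79.0 CPM in control and at 55.7 to 100.4 CPM in mutant mice. Sema4f was at 63.4 to 68.3 and at 60.6 to 100.4 CPM, and Sema4a, Sema4b and Sema4c had log2 fold changes between -0.03 and 0.09. Sema5a and Sema5b, which carry thrombospondin repeats, differed by 0.15 and -0.20. Sema6a, Sema6c and Sema6d, transmembrane ligands of A plexins, differed by 0.08, 0.06 and -0.01. Exons of Sema4c, Plxna1 and Plxna4 overlap a gene on the opposite strand, and those of Sema4a and Nrp1 hold a microRNA gene on their own strand, so a share of their reads could belong to these.

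Of the neuropilins, Nrp1 rose and Nrp2 did not pass the threshold. Nrp1, the ligand-binding partner for Sema3a and a co-receptor for VEGF, was at 71.2, 63.2 and 69.8 CPM in controls and at 81.5, 83.0 and 91.6 CPM in mutants, with no overlap. The log2 fold change was 0.33 (SE 0.09, adjusted p = 0.0400), and leaving out any single mouse ended the call (adjusted p between 0.0588 without control mouse 1 and 0.160 without control mouse 2). Nrp2, which prefers Sema3f and Sema3g, was at 238, 197 and 183 CPM in controls and at 152, 155 and 211 CPM in mutants. Mutant mouse 3 lay within the control range and the other mutant mice below it (log2 fold change -0.25, SE 0.15, adjusted p = 0.262). Without mutant mouse 3, Nrp2 passed the threshold downward (-0.42, adjusted p = 0.0449).

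All 9 plexins had a positive log2 fold change, beside 51.4% of all genes, and 4 of them rose (44.4%, beside 8.62%). Plxnd1 (ENSMUSG00000030123, chr6:115954811-115995005), the receptor for Sema3e and known best from vascular patterning, had the largest change of the called receptors. It was at 62.3, 38.2 and 35.2 CPM in controls and at 86.6, 110.4 and 117 CPM in mutants. Every mutant mouse was above every control mouse, with control mouse 1 nearest to them. The log2 fold change was 1.21 (SE 0.21, adjusted p = 0.0145), a fold of 2.32, and it was 1.10 with an adjusted p of 0.0823 without control mouse 2. Plxnc1, the Sema7a receptor, was at 67.7, 64.3 and 66.7 CPM in controls and at 82.0, 84.5 and 97.0 CPM in mutants, with no overlap. Its log2 fold change was 0.41 (SE 0.09, adjusted p = 0.0236), and the call was lost without control mouse 2 (0.109) or mutant mouse 2 (0.0555). Plxnc1 shares exon sequence on the same strand with Gm48718, so reads there could belong to either.

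Of the A plexins, which carry the class 3 signal with neuropilins and also bind class 6 ligands, Plxna2 rose. Plxna2 was at 182, 154 and 177 CPM in controls and at 209.9, 203 and 234 CPM in mutants, with no overlap. The log2 fold change was 0.34 (SE 0.09, adjusted p = 0.0447), and leaving out any single mouse ended the call (adjusted p between 0.0573 without control mouse 1 and 0.170 without control mouse 2). Plxna1, the most abundant receptor per kb, was at 249.8, 224 and 239 CPM in controls and at 273, 239 and 281 CPM in mutants. Mutant mouse 2 fell within the control range, and the log2 fold change was 0.16 (adjusted p = 0.256). Plxna3 was higher in every mutant mouse, at 80.7 to 95.7 and at 102 to 142 CPM (0.39, adjusted p = 0.0867), and Plxna4 overlapped (0.21, adjusted p = 0.270).

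Of the B plexins, the receptors of class 4 ligands, Plxnb2 rose. Plxnb2, which binds Sema4c and Sema4g among others, was at 172, 141 and 127 CPM in controls and at 215, 177 and 208 CPM in mutants. The groups did not overlap, but mutant mouse 2 was within 5 CPM of control mouse 1. The log2 fold change was 0.45 (SE 0.12, adjusted p = 0.0468). It passed the threshold without control mouse 1 (0.0313) and in no other fit that left out a mouse (adjusted p between 0.0624 without mutant mouse 2 and 0.166 without control mouse 2). Plxnb1, the Sema4d receptor, was at 105 to 144 and at 143 to 185 CPM, just short of the threshold (0.50, adjusted p = 0.0506). It passed in 6 of 13 alternatives, DESeq2 among them (adjusted p = 0.0110), and it shares sequence with Gm7628 on the opposite strand. Plxnb3 had the largest fold of any receptor and did not pass, since it was at 10.6, 5.96 and 15.1 CPM in controls and at 29.5, 57.3 and 12.4 CPM in mutants (1.65, SE 0.52, adjusted p = 0.0635). Without mutant mouse 3, which lay within the control range, Plxnb3 passed (2.04, adjusted p = 0.0182). Mutant mouse 2, the mouse with the highest Schwann cell list, was highest, and without it the log2 fold change was 0.99 (adjusted p = 0.186).

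**Figure D3:**
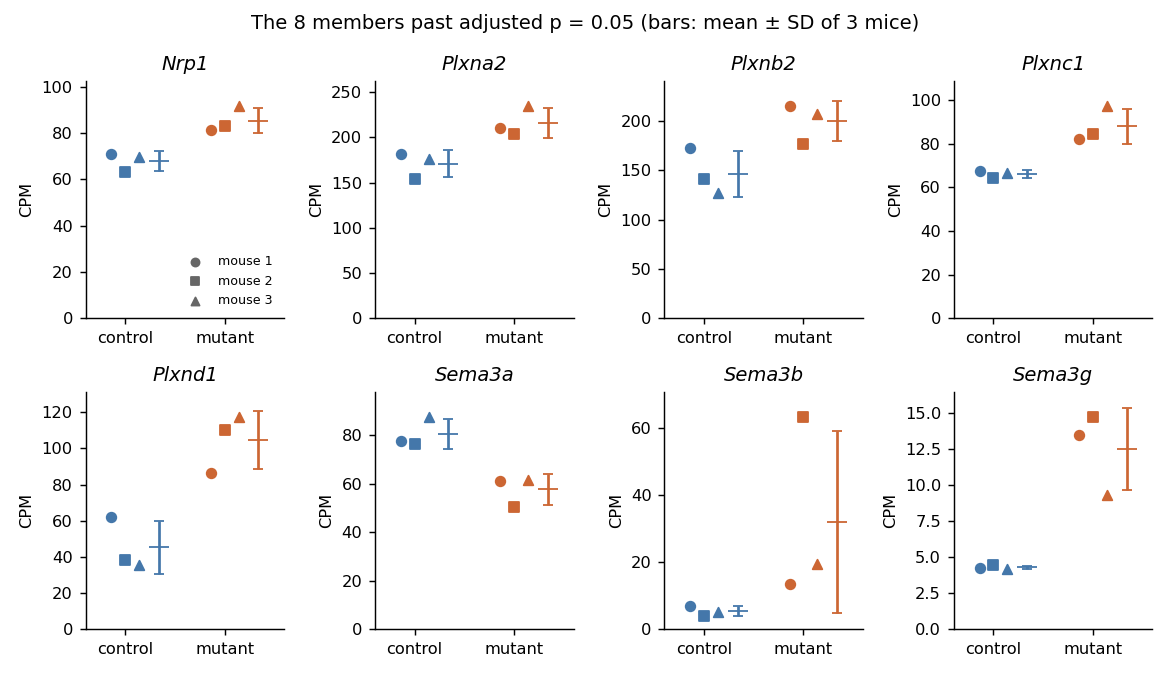
CPM of the 8 members past an adjusted p of 0.05 in each mouse, with symbols for mouse number within a genotype and bars for the mean ± SD of 3 mice; axes start at 0. Control and mutant mice do not overlap for any of the 8, Sema3a is the one that fell, and the mutant mean of Sema3b is carried by mutant mouse 2 at 63.3 CPM.

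Mutant mice did not move alike. Among the receptors the highest mutant mouse was mutant mouse 3 for 8 of 11, mutant mouse 1 for 2 and mutant mouse 2 for 1. Among the ligands it was mutant mouse 3 for 10, mutant mouse 2 for 7 and mutant mouse 1 for 3 of 20. The median log2 ratio of the receptors to the control mean was 0.30, 0.27 and 0.43 in mutant mice 1, 2 and 3 and 0.12, -0.11 and -0.03 in control mice 1, 2 and 3. Each mutant mouse was thus above each control mouse on this measure, as was the case for 19.6% of all single genes. The same median over the ligands was 0.05, 0.14 and -0.02 in mutants and 0.02, -0.07 and 0.00 in controls, which overlap.

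**Figure D4:**
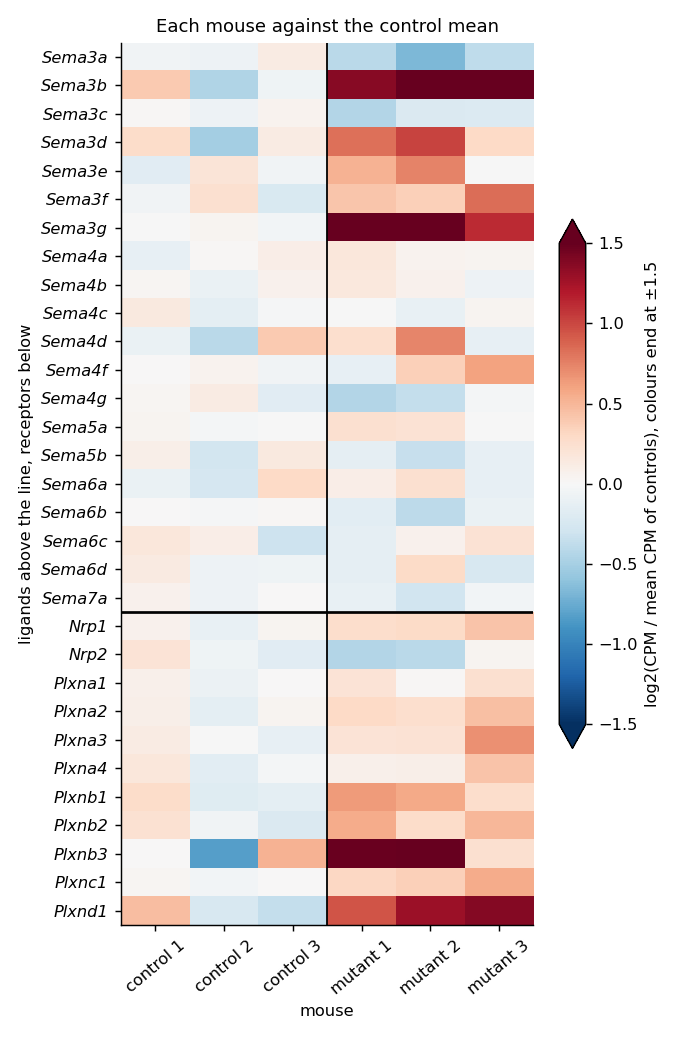
Log2 ratio of each member's CPM to the mean of the 3 control mice, in every mouse; red is above and blue below the control mean, and colours end at 1.5 either way. The receptor rows below the line are red in most mutant fields, with Nrp2 the exception in mutant mice 1 and 2, while rows of ligand classes 4 to 7 show both colours.

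Ligands were set against their known receptors in 37 hand-written pairs, which reuse the same genes and are not separate observations. In 2 of these both members rose: Sema3b (2.61 on the log2 scale) with Nrp1 (0.33) and with Plxna2 (0.34). In 3 pairs the ligand rose and the receptor did not pass the threshold: Sema3b with Nrp2 (-0.25) and Plxna4 (0.21), and Sema3g (1.55) with Nrp2. Sema3a fell (-0.48) while Nrp1 and Plxna2 rose, and its other 3 pairs, with Plxna1, Plxna3 and Plxna4, had receptors that did not pass. In 11 pairs the receptor rose and the ligand did not pass, among them Sema7a with Plxnc1 (-0.14 and 0.41), Sema3e with Plxnd1 (0.45 and 1.21) and Sema4g with Plxnb2 (-0.27 and 0.45). In the other 16 pairs neither passed.

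Other genes of the pathway were taken from a hand-written list. It was made with results of these data known, so its shares are a description and cannot show enrichment. The list held 74 co-receptors, other ligands of the plexins and neuropilins and cytoplasmic partners, of which 72 were tested. Of these, 15 rose and 3 fell (20.8% and 4.17%, beside 8.62% and 6.01% of all genes), with a median log2 fold change of 0.08. Among 22 co-receptors and receptors of other kinds 8 rose and 1 fell (36.4% and 4.55%). The largest rises were Mst1r, a receptor kinase that pairs with B plexins (1.66 to 1.78 CPM in control and 4.41 to 7.09 CPM in mutant mice, log2 fold change 1.82), Cd44 (10.1 to 13.9 and 22.0 to 41.3 CPM, 1.44) and Erbb2 (6.18 to 12.9 and 15.2 to 23.8 CPM, 1.16). The VEGF receptors rose as well, Flt1 by 1.01, Kdr by 0.92 and Flt4 by 0.83, and so did the integrins Itga1 (0.68) and Itgb1 (0.42). The one that fell was Cd72, the receptor of Sema4d on B cells, from 5.26 to 6.65 CPM in control to 0.83 to 2.12 CPM in mutant mice (-1.98). Of 6 other ligands tested 4 rose: Hgf (1.55), Pgf (1.11), Vegfa (1.03) and Tgfb1 (0.76). Vegfa, which competes with class 3 semaphorins for Nrp1, was at 29.3, 34.2 and 25.7 CPM in controls and at 49.4, 42.3 and 89.8 CPM in mutants. The cytoplasmic partners, by contrast, were near the share of all genes, with 3 of 44 higher (Fes, Rras and Tln1) and 2 lower (Pak1 and Dpysl4), that is 6.82% and 4.55%. No test compared these roles. With control mouse 2 left out, the edgeR fit called 0 of 73 tested genes of the list in either direction. At an unadjusted p under 0.05, 18 were higher and 5 lower in that fit. In the edgeR fit on all 6 mice, 33 of the 72 tested genes of the list were under that level, beside 5737 of all 17099 genes. The count of rises was 9 without control mouse 3, and 6 and 7 without mutant mice 1 and 2. The falls were 1 without either of these mutant mice and 9 without mutant mouse 3.

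The summed marker lists of several cell types moved with the genotype. Their counts of called genes stand beside 8.62% of all genes higher and 6.01% lower by edgeR. The pericyte and smooth muscle list (12.5% higher) and the macrophage list (0 of 10) were near or below that share of rises. The endothelial list, which shares Kdr with the pathway list, summed to 189 to 316 CPM in control and 320.0 to 428 CPM in mutant mice. Of its 10 genes 3 rose. The fibroblast list summed to 378 to 1270 and 2126 to 3276 CPM with 4 of 10 higher, the pericyte and smooth muscle list to 169.8 to 269 and 279 to 565 CPM with 1 of 8 higher, and the skeletal muscle list to 37.6 to 59.4 and 158 to 724 CPM with 10 of 12 tested higher. The sensory neuron list summed to 514 to 605 and 694 to 1444 CPM with 10 of 15 higher, and the macrophage list to 105 to 148 and 155 to 175 CPM with 0 of 10 called by edgeR, 3 at an unadjusted p under 0.05, 2 by DESeq2 and 1 by limma voom. These lists did not overlap between the genotypes. The Schwann cell list overlapped, at 309 to 1878 and 605 to 4641 CPM, and the central neuron and glia list stood at 3066 to 3786 and 2665 to 4167 CPM with 2 of 14 lower by edgeR and 0 higher, and with 5 lower and 1 higher at an unadjusted p under 0.05. DESeq2 called 4 of these lower and 0 higher, and limma voom 1 and 0. The oligodendrocyte list was at 540 to 1214 and 582 to 1822 CPM with 0 of 11 called by edgeR, DESeq2 or limma voom and 1 at an unadjusted p under 0.05 by edgeR. The erythroid list was lower in every mutant mouse, at 431 to 747 and 75.5 to 290.2 CPM, with 4 of 5 lower. Of all markers, Tnnc2 of the muscle list was at 0 in all control mice, and Mrgprd of the sensory list was at 0 in control mouse 1. The counts of called markers rested on single mice as well. Without control mouse 2 the edgeR fit called 1 muscle and 4 sensory neuron genes and 0 of the endothelial, fibroblast, pericyte, Schwann cell and erythroid lists. Without control mouse 3 it called 0 endothelial and 0 pericyte genes and 1 Schwann cell gene. Without control mouse 1 it called 6 endothelial, 2 Schwann cell and 0 erythroid genes, and without mutant mouse 2, 4 pericyte, 3 Schwann cell and 1 erythroid gene. Without mutant mouse 1 it called 1 endothelial gene, and without mutant mouse 3, 2 pericyte genes. Of the central list it called 0 lower without control mouse 2, mutant mouse 1 or mutant mouse 2, 1 higher and 2 lower without control mouse 3, 2 higher and 3 lower without mutant mouse 3, and 1 lower without control mouse 1. Of the oligodendrocyte list it called 1 higher without control mouse 3 or mutant mouse 3, with 7 and 5 of 11 higher at an unadjusted p under 0.05, and of the macrophage list 2 higher without control mouse 1 or mutant mouse 3. Limma voom called 5 of 12 muscle and 0 of 8 pericyte genes over all 6 mice, and DESeq2 called 10 and 4. The part of these lists in the changes of the semaphorins, plexins and neuropilins was not tested.

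**Figure D5:**
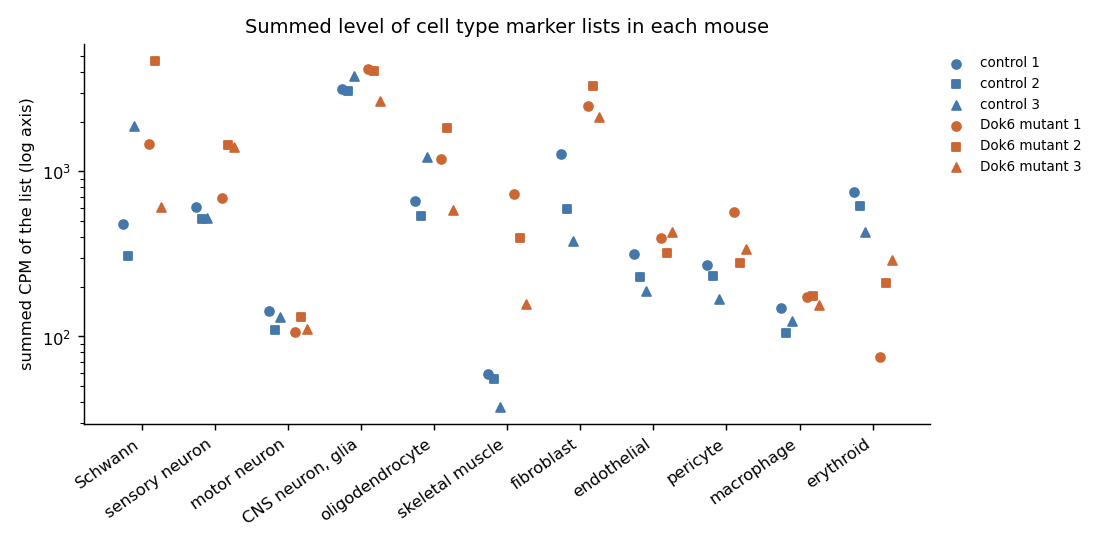
Summed CPM of the hand-written marker list of each cell type in every mouse, on a log axis; colours are genotypes and symbols are mouse numbers. Skeletal muscle, fibroblast, endothelial and sensory neuron sums are higher in all 3 mutant mice, erythroid sums are lower, and the Schwann cell sum of mutant mouse 2 stands at 4641 CPM.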

How the data were processed

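RNA of P3 sciatic nerve from 3 control and 3 Dok6 mutant mice was analysed, with groups taken from the sample labels. The authors deposited whole-number counts of reads per gene, without normalization, and a length for each gene. The submitters' processing notes name mm10. Which aligner and counter were used, and whether counting took strand into account, is not given in the sources used here. The kit is a strand-marking one in the study's methods and not in the labels, so reads of overlapping antisense genes may be shared.

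Counts were fitted with edgeR 4.0.16 in R 4.3.3 (filterByExpr, TMM scaling, glmQLFit and glmQLFTest, no block) over all 6 libraries, with Benjamini-Hochberg adjustment over the 17099 genes tested. Calls are at an adjusted p under 0.05, and fold changes are mutant over control. The study's threshold of 2 on the log2 scale and a looser one of 1 were applied as well. CPM are TMM-scaled, and CPM per kb are these divided by the deposited gene length. The members, gene lists and tests were chosen with earlier results of these data known. Named in full were all called members, the 3 most abundant ligands and receptors per kb, and called genes of the lists with the largest changes. Gad1 and Slc6a5 were chosen after their values were seen. Other list genes are given as counts and sums, and 1 gene of the Schwann cell list is not reported here and is in none of its values.

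Alternatives were DESeq2 1.42.0, limma 3.58.1 voom, upper-quartile or RLE in place of TMM scaling, no filter on low counts, a minimum of 10 counts per sample, the mouse number as a block, and leaving out each mouse. The fits were also run on simulated counts with known changes as a check of the code, whose outcome is not given here. P-values measure the spread between 3 mice a group, and replicate libraries differed by more than sampling noise. Positions, exons and overlaps are from GENCODE M21 (GRCm38), which holds 54409 of the identifiers. Similar transcripts were sought with BLAST 2.17.0 (95% identity over 200 bases), and promoter windows are RefSeq's.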

Additional observations from a re-analysis of the deposited data

How the results depend on the processing

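Over 13 alternatives, no log2 fold change of a member that was past the threshold changed sign, while Sema4b, Sema4c, Sema6a, Sema6c and Sema6d, with values near 0, changed sign in 2 or 3 of them without passing the threshold. All of these left out a mouse, and over such fits Sema4b ranged from -0.0079 to 0.11, Sema4c from -0.096 to 0.055, Sema6a from -0.031 to 0.26, Sema6c from -0.075 to 0.15 and Sema6d from -0.19 to 0.090. Of the 31 members' values under the alternatives, 338 kept their side of the threshold and their direction, 11 changed sign, 35 lost the threshold and 19 gained it. With no filter on low counts, 12 members rose, 4 of them ligands and 8 receptors, beside 6.08% of all genes. DESeq2 called 10 members higher, 4 of them ligands, beside 10.6% of all genes. It called 2 members lower, both of them ligands, and 5 other genes of the pathway lower, beside 8.88% of all genes. Limma voom called 1 ligand higher, Sema3g, beside 7.86% of all genes, and 0 members above a log2 fold change of 2. The mouse numbers did not pair the samples (correlations of deviations -0.01, -0.17 and -0.24 for mice 1, 2 and 3). With the number as a replicate block, 2 members rose, Sema3g (adjusted p = 0.0278) and Plxnd1 (0.0490), which are 1 ligand and 1 receptor. In that fit 0 members and 0 ligands fell. Of all genes, 2.53% rose and 0.76% fell. With this block 0 members passed above a log2 fold change of 2, and 6 other genes of the pathway rose and 1 fell, and of all calls 76.9% were upward, beside 58.9% without the block. Leaving out each mouse in turn gave 0 to 8 members higher and 0 to 3 lower, beside 0.318% to 9.59% of all genes higher and 0.0682% to 7.08% lower. The 3 lower came without mutant mouse 3, where 7.08% of all genes fell. By role these fits gave 0 to 4 ligands higher and 0 to 2 lower, and 0 to 4 receptors higher and 0 to 1 lower. They gave 0 to 4 members above a log2 fold change of 1 and 0 to 2 above 2. Ligand medians were 0.05 to 0.12 and receptor medians 0.27 to 0.44. Of other pathway genes, 0 to 18 were higher and 0 to 9 lower. Such fits hold fewer samples. Sema3g and Plxnd1 were past the threshold in 12 of the 13 alternatives, the exception being the fit without control mouse 2. By CPM without length, Sema4g moved from rank 1 to 2, Sema7a from 2 to 6 and Sema6b from 3 to 5 among ligands, and Plxnb2 from 2 to 5 among receptors. With GENCODE exonic length, chosen after seeing the data, Sema4g moved from rank 1 to 4. The depth set no limit on any member, since the lowest count was 67 reads, whereas 3 mice a group limit what can be called.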
